A study of Homo sapiens with 9 samples.

Results

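The 10 genes described here encode the subunits of the transcription factor NF-kB and feedback regulators that its own activity switches on. NFKB1, RELA, REL, NFKB2 and RELB encode the DNA-binding subunits or their precursors. NFKBIA, NFKBIE and NFKBIZ encode proteins of the IkB family (that of NFKBIZ being nuclear). The remaining members, TNFAIP3 and BIRC3, encode a deubiquitinase and a ubiquitin ligase of the feedback loop. They were taken by gene symbol from the 26485 genes listed for each library, and not by a filter on their values. Earlier results of these data were known when they were chosen. All 10 were found in both tables of normalised read counts. RNA sequencing was carried out in MDA-MB-231, a widely used mesenchymal line of human triple-negative breast cancer. The cells expressed either a nonspecific (NS) small hairpin RNA (shRNA), which served as the control, or ASAH1 shRNA #1 or ASAH1 shRNA #2. The latter are independent hairpins against the acid ceramidase gene. Each of these 3 groups had 3 libraries (n = 3 in every mean ± SD below), described as biological replicates, and because nothing states how separately the cultures were kept, the p-values measure only the spread between these libraries. A single control hairpin stood for all controls, and the same NS shRNA libraries entered the comparison of each ASAH1 hairpin, so the 2 comparisons are not independent of each other.

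NF-kB dimers are held in the cytoplasm by IkB proteins. In the canonical branch, signals such as TNF, IL-1 or Toll-like receptor ligands lead to IkB degradation and release dimers of p50 (from NFKB1) with RELA or REL. In the noncanonical branch, p100 (from NFKB2) is processed to p52, which pairs with RELB. Several NF-kB target genes encode the pathway's own inhibitors, among them NFKBIA, NFKBIE and TNFAIP3 (A20), and the line used here is known for constitutive NF-kB activity.

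The set of RefSeq promoters (GRCh38.p14) used here held 8 of the 10 members, so that RELB and NFKBIE were not searched. Of the 8 searched, 7 (all except RELA) carried at least 1 match to the NF-kB consensus motif, on either strand. The window ran from 250 bases before to 50 bases after the annotated start. The same motif was found for 7.09% of all 27305 gene symbols with such a window, or in 5.91% of 35116 windows. By window, 9 of the 13 windows of the members held it. The members were chosen to include known NF-kB target genes, so their share is no test against all genes. The runs below, printed 5′ to 3′ on the strand of the gene, are examples and not all that were found, and capitals mark the motif matches. Whether the matches bear on how the members moved with the 2 hairpins was not tested. Each run extends 20 bases beyond its outermost matches, or to the last base before the RefSeq start where that is nearer, as in NFKB2.
TNFAIP3, chr6:137867172-137867233, plus strand: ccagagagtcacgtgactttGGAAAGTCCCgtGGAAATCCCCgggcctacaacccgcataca
NFKB2, chr10:102395509-102395704, plus strand: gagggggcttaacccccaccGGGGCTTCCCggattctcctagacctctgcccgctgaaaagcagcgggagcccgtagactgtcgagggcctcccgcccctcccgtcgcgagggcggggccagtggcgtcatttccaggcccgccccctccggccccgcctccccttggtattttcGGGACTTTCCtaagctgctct
BIRC3, chr11:102317265-102317378, plus strand: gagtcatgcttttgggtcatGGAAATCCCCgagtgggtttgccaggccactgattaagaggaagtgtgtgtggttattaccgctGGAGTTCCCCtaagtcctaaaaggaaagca
NFKB1, chr4:102501290-102501339, plus strand: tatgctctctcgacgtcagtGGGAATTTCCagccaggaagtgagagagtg
NFKBIA, chr14:35404801-35404850, minus strand: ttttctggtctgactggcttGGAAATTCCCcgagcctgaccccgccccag
TNFAIP3 carried its matches 67 and 55 bases before the start, a short distance apart. In BIRC3 they lay 199 and 135 bases before it, and in this window of NFKB2, which is 1 of 2 of its windows with a match, 176 and 21 bases before it. NFKB1 and NFKBIA had a single match each, at 49 and 81 bases. REL and NFKBIZ also held matches. All matches lay before the RefSeq start. A match is a description of the letters and not a measured binding site.

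The libraries held between 23806003 and 49659106 reads on genes. ASAH1 fell to 29.6% of the NS shRNA level with shRNA #1 (4489 ± 45.4 to 1327 ± 51.9 normalised reads) and to 16.1% with shRNA #2 (4852 ± 57.9 to 783 ± 22.6). Of the markers of the line, VIM, CD44, AXL, CAV1 and KRT18 each had at least 205 CPM (reads on genes, scaled to a common library total) in every library, whereas the hormone receptor genes ESR1 and PGR had at most 2 reads in any library and ERBB2 had 61.2 to 105 CPM. Among leukocyte markers PTPRC had at most 8 reads and CD3E at most 3 in any library. CD14 made up nearly all of the summed level of PTPRC, CD3E and CD14, which was 27.1 to 33.1 CPM with NS shRNA, 6.55 to 7.44 CPM with shRNA #1 and 27.0 to 31.2 CPM with shRNA #2. The endothelial markers PECAM1 and CDH5 together had at most 3.16 CPM. The part of these differences in the results for shRNA #1 was not tested.

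On a scale per length, which allows genes to be compared with each other, the inhibitor NFKBIA had the highest level of the 10 members in NS shRNA cells, with 208 ± 10.9 CPM per kilobase of its canonical transcript. RELA followed with 70.6 ± 4.34 and NFKB2 with 51.1 ± 2.46 on the same scale. BIRC3 (26.1 ± 1.61), NFKBIE (23.2 ± 2.48), RELB (23.0 ± 0.874) and NFKB1 (21.9 ± 0.592) came next, and neighbours among these genes overlapped in their libraries. NFKBIZ had 17.0 ± 1.11 and TNFAIP3 9.37 ± 0.425 CPM per kilobase, while REL, a subunit best known from lymphoid cells, had only 0.399 ± 0.122. With shRNA #1 the level of TNFAIP3 was 41.1 ± 1.36, above that of NFKB1 (26.2 ± 0.815), and NFKB2 (98.1 ± 4.13) stood above RELA (89.1 ± 1.33). With shRNA #2 TNFAIP3 remained second to last at 7.94 ± 0.204, overlapping NFKBIZ (8.82 ± 0.807), and NFKBIE (53.5 ± 9.49) ranked after RELA (68.2 ± 3.83). Taking the length of all annotated exons instead of the canonical transcript left NFKBIA highest and REL lowest in the 3 groups but moved NFKB1, whose annotated exons are long, below TNFAIP3 in NS shRNA cells (5.66 ± 0.153 against 6.79 ± 0.308). That length also placed NFKBIE above RELA with shRNA #2 (48.6 ± 8.62 against 31.5 ± 1.77) and changed other ranks below NFKBIA. CPM follow the library total and not the normalisation used in the tests, so small differences between groups can come out differently. RELA, for example, had a lower mean with shRNA #2 than with NS shRNA here but a log2 fold change of 0.09 in the test below.

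**Figure D1:**
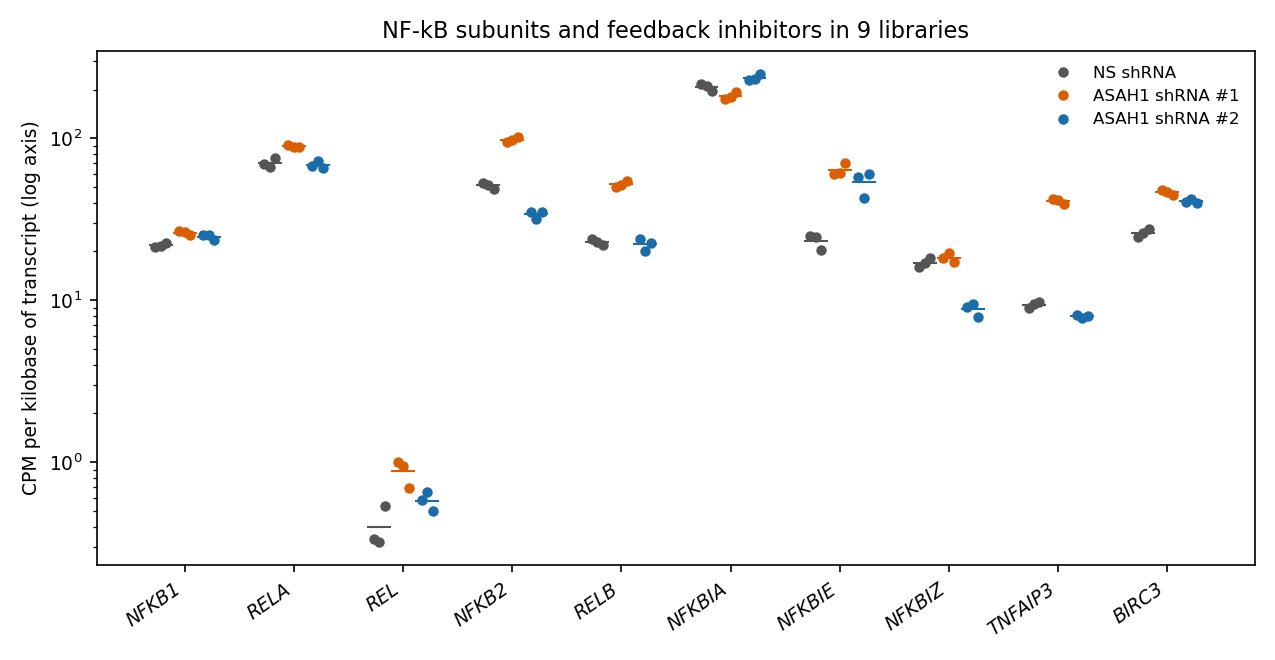
Level of each member in the 9 libraries, as CPM per kilobase of canonical transcript (log axis). Each point is a library, each horizontal line the mean of the 3 libraries of a group. TNFAIP3, NFKB2 and RELB are higher in shRNA #1 libraries than in all others, NFKBIZ is lower in shRNA #2 libraries than in all others, and NFKB1, NFKBIE and BIRC3 are higher with either hairpin than with NS shRNA.

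Each hairpin was then compared with NS shRNA to ask which members changed. All 10 members had a mean of at least 10 normalised reads in each table and were tested, with limma on log2(normalised read count + 1) and Benjamini-Hochberg adjustment over all genes tested (threshold 0.05). With shRNA #1, 9 of 10 members passed, 8 of them higher and NFKBIA lower, where 66.1% of all 14341 genes tested passed (32.8% higher and 33.3% lower). Above a change of 1.5-fold there were 6 members, all higher (NFKB2, REL, RELB, NFKBIE, TNFAIP3 and BIRC3), beside 28.9% of all genes (15.0% higher and 14.0% lower). The NS shRNA and shRNA #1 libraries did not overlap for 9 members and for 69.2% of all genes. The median log2 fold change was 0.87 over the members and 0.00 over all genes. With shRNA #2, 7 of 10 members passed, 5 higher and 2 lower, beside 66.9% of 14250 genes (33.5% higher and 33.4% lower). More than 1.5-fold changes were found for 4 members, REL, NFKBIE and BIRC3 higher and NFKBIZ lower, beside 32.5% of all genes (14.8% higher and 17.6% lower). In normalised reads the libraries did not overlap for 7 members and for 70.0% of all genes. Here the median over the members was 0.20 and over all genes 0.01. In bulk RNA, fewer cells that express a gene and less RNA per cell cannot be told apart.

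TNFAIP3, the deubiquitinase A20 that ends TNF and Toll-like receptor signalling, rose most of the members with shRNA #1. The gene spans chr6:137867214-137883314 (hg38, GENCODE v44), with 9 exons in its canonical transcript. Its NS shRNA libraries had 1346, 1433 and 1459 normalised reads and the shRNA #1 libraries 6243, 6220 and 5901. The groups were far apart, with a mean of 1412 ± 59.1 against 6121 ± 191, which is a 4.33-fold rise (log2 fold change 2.12, SE 0.05, limma adjusted p = 5.25e-09). Of all genes tested, 1.95% had a larger absolute log2 fold change. In the table normalised with shRNA #2 the NS shRNA libraries had 1452, 1555 and 1573 normalised reads, and the shRNA #2 libraries 1459, 1371 and 1430. These values overlapped, and the log2 fold change of -0.10 (95% interval -0.24 to 0.04, limma adjusted p = 0.168) did not pass. In CPM per kilobase of canonical transcript, a scale not used in the tests, the shRNA #2 libraries (7.73 to 8.13) lay below the NS shRNA libraries (8.90 to 9.71). Tested against each other on 1 scale, from reads recovered for all 9 libraries, the hairpins differed in TNFAIP3, which had a log2 ratio (shRNA #2 over shRNA #1) of -2.23 (edgeR adjusted p = 6.89e-11).

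The genes of the noncanonical branch, NFKB2 and RELB, also rose with shRNA #1. NFKB2 had 5212, 5030 and 4703 normalised reads with NS shRNA and 9043, 9409 and 9879 with shRNA #1, a log2 fold change of 0.92 (SE 0.05, limma adjusted p = 6.78e-07). With shRNA #2 it went the other way, from 5624, 5460 and 5071 to 4052, 3665 and 4099 normalised reads (log2 fold change -0.45, SE 0.06, limma adjusted p = 0.000115). The libraries did not overlap in either comparison, so that NFKB2 was higher than NS shRNA in all 3 shRNA #1 libraries and lower in all 3 shRNA #2 libraries. RELB, the partner of p52 at chr19:45001461-45038192 (hg38), had 1744, 1677 and 1604 normalised reads with NS shRNA and 3585, 3710 and 3931 with shRNA #1 (log2 fold change 1.16, SE 0.06, limma adjusted p = 2.01e-07). In the shRNA #2 table its NS shRNA libraries had 1881, 1821 and 1729 normalised reads and the hairpin libraries 2071, 1719 and 1953. Here 1 hairpin library lay below all controls and the other two above them, and the log2 fold change of 0.08 did not pass (95% interval -0.09 to 0.25, limma adjusted p = 0.394). Between the hairpins, shRNA #2 over shRNA #1, the log2 ratio was -1.39 for NFKB2 (edgeR adjusted p = 1.03e-08). For RELB it was -1.09 (edgeR adjusted p = 1.69e-07).

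Among the canonical subunits the changes were small for NFKB1 and RELA. NFKB1, the precursor of p50, rose with shRNA #1 from 2814 to 2942 normalised reads over the NS shRNA libraries to 3284 to 3478 (log2 fold change 0.24, SE 0.05, limma adjusted p = 0.00144). With shRNA #2 it rose from 3037 to 3172 normalised reads to 3688 to 3917 (log2 fold change 0.31, SE 0.05, limma adjusted p = 0.000526). The groups did not overlap, although 64.8% and 60.4% of all genes tested had larger absolute log2 fold changes. RELA, the main transactivating subunit, rose with shRNA #1 from 5427 to 6099 normalised reads to 7064 to 7247 (log2 fold change 0.32, SE 0.05, limma adjusted p = 0.000427). With shRNA #2 its values of 6319 to 6944 normalised reads overlapped those of NS shRNA, 5891 to 6576, and the log2 fold change of 0.09 did not pass (95% interval -0.05 to 0.22, limma adjusted p = 0.232). RELA was slightly lower with shRNA #2 than with shRNA #1 (log2 ratio -0.25, edgeR adjusted p = 0.00176), whereas the ratio for NFKB1 of 0.05 did not pass (95% interval -0.05 to 0.15, edgeR adjusted p = 0.351).

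REL rested on few reads and had the widest spread of the members in NS shRNA. Its NS shRNA libraries had 120, 116 and 193 normalised reads, so replicate 3 stood above the other two, and the shRNA #1 libraries had 353, 334 and 246. REL rose with shRNA #1 (log2 fold change 1.14, SE 0.20, limma adjusted p = 0.000871). With shRNA #2 the values went from 130, 126 and 208 to 248, 277 and 214 normalised reads (log2 fold change 0.70, SE 0.19, limma adjusted p = 0.00701), and the lowest hairpin library was just above the highest control. In CPM per kilobase of canonical transcript these groups overlapped, with 0.54 for NS shRNA replicate 3 and 0.50 for shRNA #2 replicate 3. Leaving out NS shRNA replicate 1, 2 or 3 gave log2 fold changes of 1.03, 1.01 and 1.37 with shRNA #1 and of 0.60, 0.57 and 0.93 with shRNA #2, which passed each time. At 0.57 REL was below 1.5-fold, and 3 members in place of 4 then exceeded that change with shRNA #2. The difference between the hairpins lay at the threshold (log2 ratio -0.46, edgeR adjusted p = 0.0498). It did not pass when any of NS shRNA replicate 1, shRNA #1 replicates 1 and 2, or shRNA #2 replicates 1 and 3 was left out, with adjusted p-values of 0.0551, 0.136, 0.144, 0.104 and 0.155 in that order.

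**Figure D2:**
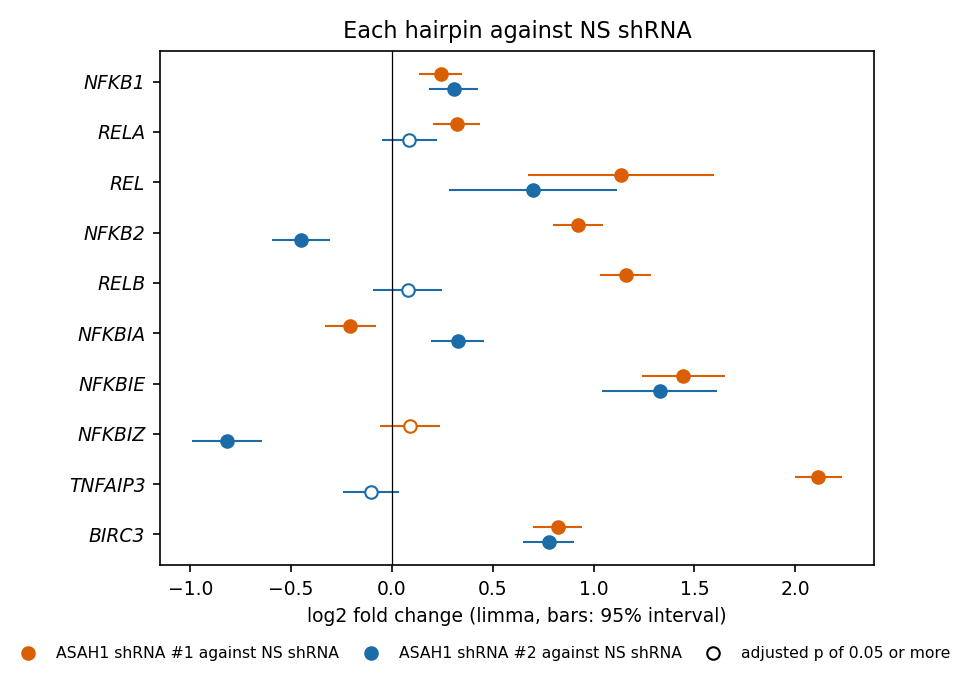
Log2 fold change of each member with ASAH1 shRNA #1 (orange) and ASAH1 shRNA #2 (blue) against the same NS shRNA libraries. Points are limma estimates from 3 against 3 libraries, bars their 95% intervals, and open points had an adjusted p of 0.05 or more. TNFAIP3 lies at 2.12 with shRNA #1 and -0.10 with shRNA #2, while the points for NFKBIE and BIRC3 lie close together.

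The IkB genes did not move as a group. NFKBIA encodes IkBα, the most rapidly resynthesised inhibitor of the canonical branch. It had 10962, 10605 and 9814 normalised reads with NS shRNA and 8675, 8952 and 9569 with shRNA #1, a small decrease (log2 fold change -0.21, SE 0.06, limma adjusted p = 0.00945) with a narrow gap between the groups. With shRNA #2 it rose from 11828, 11512 and 10582 to 13693, 13847 and 14953 normalised reads (log2 fold change 0.33, SE 0.06, limma adjusted p = 0.000687). NFKBIA was the only member that was higher with shRNA #2 than with shRNA #1 by the test of that difference (log2 ratio 0.52, edgeR adjusted p = 1.34e-05).

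NFKBIE, which encodes IkBε, at chr6:44258166-44265788 (hg38), rose with either hairpin by amounts that could not be separated. Its normalised reads were 1883, 1853 and 1534 with NS shRNA and 4477, 4550 and 5312 with shRNA #1 (log2 fold change 1.45, SE 0.09, limma adjusted p = 1.05e-06). In the shRNA #2 table they were 2032, 2011 and 1653 with NS shRNA and 5182, 3800 and 5441 with the hairpin (log2 fold change 1.33, SE 0.13, limma adjusted p = 6.87e-06). All hairpin libraries were above all controls, and shRNA #2 replicate 2 was the lowest of the hairpin libraries. The log2 ratio between the hairpins was -0.12 (95% interval -0.39 to 0.16, edgeR adjusted p = 0.436), and it was 0.03 without that library. The genes whose levels over the 9 libraries were most like those of NFKBIE, among 11630 genes, were NUPR1, NFKBIB and ZNF593, with root mean square differences of 0.13, 0.14 and 0.14 in log2(CPM + 1) less the NS shRNA mean, where the median gene differed by 1.15. NFKBIB encodes IkBβ, another inhibitor of the family. For REL, the other member taken by this rule, the most similar genes were ATXN2L, ZKSCAN8 and NUTM2B-AS1, with differences of 0.12, 0.13 and 0.13 beside a median of 0.74.

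NFKBIZ, which encodes the nuclear IkBζ that acts on promoters together with p50, changed with shRNA #2. The NS shRNA libraries had 2036, 2139 and 2298 normalised reads and the shRNA #1 libraries 2269, 2451 and 2164. These overlapped, and the log2 fold change of 0.09 did not pass (95% interval -0.06 to 0.24, limma adjusted p = 0.258). With shRNA #2 the values fell from 2196, 2322 and 2478 to 1370.5, 1412 and 1196 normalised reads (log2 fold change -0.82, SE 0.08, limma adjusted p = 6.62e-06), with a wide gap between the groups. Between the hairpins the log2 ratio, shRNA #2 over shRNA #1, came to -0.92 (edgeR adjusted p = 1.03e-06). In GENCODE NFKBIZ overlaps NXPE3 on the same strand, and REL overlaps RNU4-51P and ENSG00000267520. Reads in shared bases may have been assigned to neither gene. The paper counted reads on UCSC gene annotations, and the overlaps in those are not shown here.

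BIRC3 encodes cIAP2, a ubiquitin ligase of the TNF receptor complex that also restrains the noncanonical branch. It had 5458, 5804 and 6129 normalised reads with NS shRNA and 10533, 10305 and 9872 with shRNA #1 (log2 fold change 0.82, SE 0.05, limma adjusted p = 1.24e-06). With shRNA #2 it rose from 5889, 6300.2 and 6608 to 10657, 11037 and 10507 normalised reads (log2 fold change 0.78, SE 0.06, limma adjusted p = 1.02e-06). The 2 hairpins thus gave near-equal rises, and the log2 ratio between them of -0.06 did not pass (95% interval -0.16 to 0.05, edgeR adjusted p = 0.335). With upper quartile in place of TMM scaling, which shifted the median ratio of all genes to -0.08, the ratio for BIRC3 was -0.13 and passed (edgeR adjusted p = 0.0323).

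Set directly against each other, the hairpins differed in 7 of 10 members (6 lower and 1 higher with shRNA #2), where 63.9% of 14381 genes tested differed (32.5% lower and 31.4% higher). By more than 1.5-fold there were 4 members, TNFAIP3, NFKB2, RELB and NFKBIZ, all lower with shRNA #2, beside 27.1% of all genes (16.1% lower and 11.0% higher). NFKB1, NFKBIE and BIRC3 did not pass. The targeted gene ASAH1 was itself lower with shRNA #2 (54.0% of the level with shRNA #1), and the part of this difference in the members' differences was not tested.

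**Figure D3:**
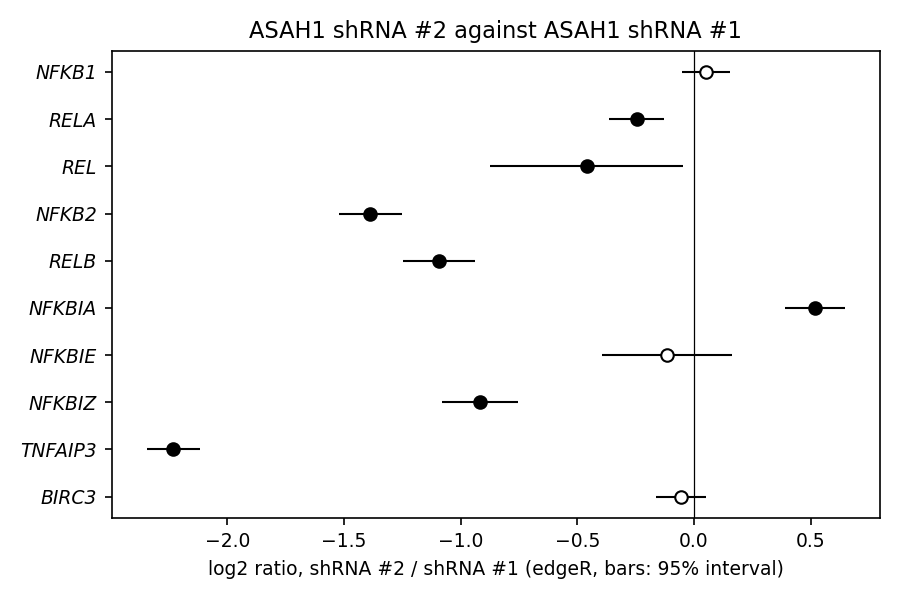
Log2 ratio of each member with ASAH1 shRNA #2 over ASAH1 shRNA #1, from edgeR on recovered reads of all 9 libraries, with 95% intervals. Filled points had an adjusted p below 0.05. TNFAIP3 at -2.23 lies farthest from 0, and NFKBIA at 0.52 is the only filled point to the right of 0.

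Other genes of the pathway were counted in 3 lists: 33 receptors, adaptors, kinases and ubiquitin ligases upstream of NF-kB (activators), 15 genes counted as further inhibitors (brakes) and 30 known targets, of which 26 were tested. The list names are broad labels, and not every gene acts only in the direction of its list's name. Like the members, the lists were chosen with earlier results of these data known. Every list gene named as rising or falling passed limma at an adjusted p below 0.05. Of the activators 11 rose and 15 fell with shRNA #1 (median log2 fold change -0.13), and 12 rose and 9 fell with shRNA #2 (median 0.05). Of all genes tested, 66.1% passed with shRNA #1 (32.8% higher and 33.3% lower) and 66.9% with shRNA #2 (33.5% higher and 33.4% lower), and the medians were 0.00 and 0.01. TNFRSF1B, the second TNF receptor, rose with shRNA #1 from 2148 ± 89.0 to 4419 ± 135 normalised reads (log2 fold change 1.04) and fell slightly with shRNA #2 (-0.16). TNFRSF1A, the main TNF receptor, fell with shRNA #1 from 4265 ± 55.4 to 2461 ± 68.2 normalised reads (log2 fold change -0.79) and by 0.14 on the log2 scale with shRNA #2. TNFRSF12A, the receptor of the cytokine TWEAK, had log2 fold changes of 0.70 with shRNA #1 and 0.16 with shRNA #2, and RBCK1, a subunit of the linear ubiquitin ligase, 0.66 and 0.57. The adaptor gene TAB2 rose by 0.55 with shRNA #1 and had a log2 fold change of 0.04 with shRNA #2, which did not pass (limma adjusted p = 0.676). TLR3, the adaptor TRADD, the kinase IKBKE and TNFRSF11A, the receptor RANK, fell with either hairpin, with log2 fold changes of -1.68, -1.01, -0.52 and -0.53 for shRNA #1 and -0.62, -0.83, -0.97 and -0.94 for shRNA #2. The lipopolysaccharide receptor gene TLR4 rose with shRNA #2 from 655 ± 95.7 to 2638 ± 219 normalised reads (log2 fold change 2.02) and fell with shRNA #1 (-0.26). IRAK1 and RIPK1 rose with either hairpin, by 0.30 and 0.27 with shRNA #1 and by 0.89 and 0.58 with shRNA #2 on the log2 scale.

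Among the brakes 7 rose and 3 fell with shRNA #1 (median log2 fold change 0.15), and 8 rose and 2 fell with shRNA #2 (median 0.28). The 10 of 15 that passed with each hairpin are close to the 66.1% and 66.9% of all genes that did. NFKBIB rose with log2 fold changes of 1.23 for shRNA #1 and 1.34 for shRNA #2. CYLD, a deubiquitinase that acts on the same complexes as A20, rose by 0.99 and 1.32, and the A20 partners TAX1BP1 and RNF11 by 0.51 and 0.58 with shRNA #1 and by 0.66 and 0.49 with shRNA #2 on the log2 scale. OTULIN, which removes linear ubiquitin chains, rose by 0.61 with shRNA #2 and had a log2 fold change of 0.00 with shRNA #1, which did not pass (limma adjusted p = 0.963). TNIP3, an A20-binding protein gene, fell by 0.33 with shRNA #1 and by 1.39 with shRNA #2, and TNIP1 by 0.15 with shRNA #1, while its value of -0.09 with shRNA #2 did not pass (limma adjusted p = 0.131). BCL3 and the RNase gene ZC3H12A passed in opposite directions, with log2 fold changes of -0.36 and 0.15 for shRNA #1 and 0.28 and -0.60 for shRNA #2.

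Of the 26 targets tested 18 rose and 3 fell with shRNA #1 (median log2 fold change 0.55), beside 32.8% of all genes higher and 33.3% lower. With shRNA #2, 10 rose and 14 fell (median -0.27), beside 33.5% of all genes higher and 33.4% lower. TNF rose with shRNA #1 from 24.5 ± 1.41 to 316 ± 10.1 normalised reads (log2 fold change 3.64, limma adjusted p = 2.44e-08) and with shRNA #2 from 26.4 ± 1.52 to 130 ± 11.3 (log2 fold change 2.25, limma adjusted p = 1.03e-06). IL1A rose with shRNA #1 from 3932 ± 181 to 28468 ± 1350.2 (log2 fold change 2.86) and with shRNA #2 from 4250.0 ± 191 to 11459 ± 493 (log2 fold change 1.43). CSF2, the gene of the cytokine GM-CSF, rose by 1.95 and 2.12, and TRAF1, an adaptor that binds cIAP proteins, by 2.35 and 0.60 on the log2 scale with shRNA #1 and shRNA #2. IRF1 rose by 0.45 and 1.19 and IER3 by 1.02 and 1.10 in the same order. PLAU, the gene of urokinase, moved in opposite directions, from 20522 ± 298 to 51614 ± 796 normalised reads with shRNA #1 (log2 fold change 1.33, limma adjusted p = 1.16e-08) and from 22183 ± 383 to 6841 ± 284 with shRNA #2 (log2 fold change -1.70, limma adjusted p = 5.07e-09). The chemokine gene CXCL3 likewise had log2 fold changes of 0.29 with shRNA #1 and -1.13 with shRNA #2. CCL2 fell from 6365 ± 123 to 109 ± 21.1 normalised reads with shRNA #1 and from 6880.2 ± 112 to 8.11 ± 1.83 with shRNA #2. CXCL1 fell by 1.20 and 1.12 and TNFAIP2 by 1.43 and 0.62 on the log2 scale with shRNA #1 and shRNA #2. The lists were not tested as sets, and the counts of the 2 hairpins, which share their NS shRNA libraries, were not tested against each other.

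**Figure D4:**
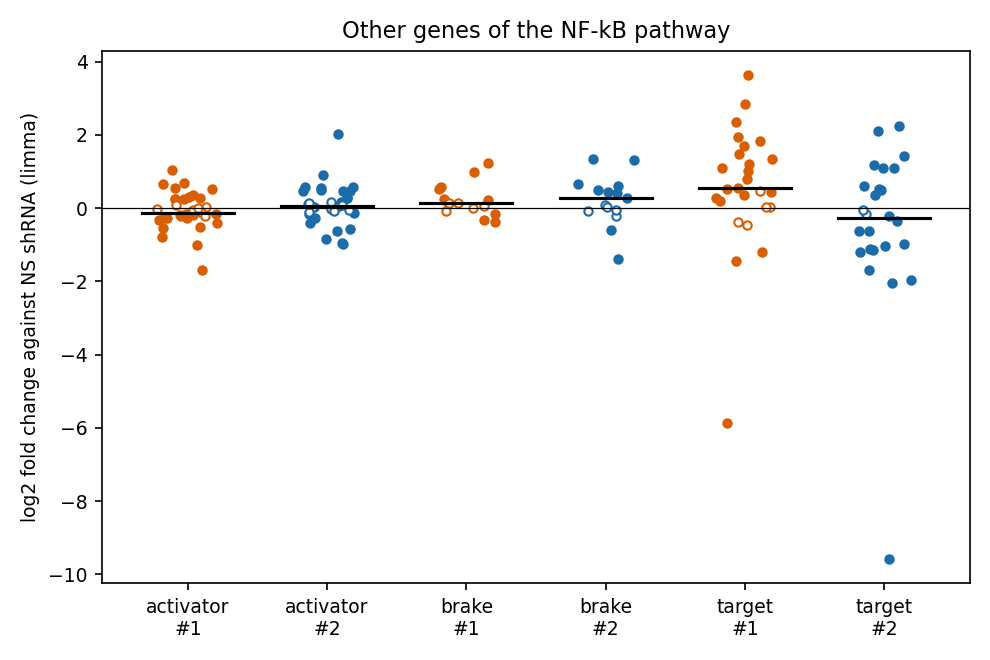
Log2 fold change against NS shRNA of the genes in the activator, brake and target lists, with ASAH1 shRNA #1 (orange) and ASAH1 shRNA #2 (blue). Each point is a gene, open points had an adjusted p of 0.05 or more, and black lines mark the medians over all tested genes of a list, -0.13 and 0.05 for activators, 0.15 and 0.28 for brakes, and 0.55 and -0.27 for targets. The lowest points are CCL2, and VCAM1 is not drawn for shRNA #2 because its libraries held at most 2 reads.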

How the data were processed

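Strand-specific dUTP libraries were made from total RNA of MDA-MB-231 cells and sequenced (single-end, 76 bp). The paper describes oligo-dT selection of mRNA, whereas the series design names ribosomal RNA depletion. Per the labels, reads were trimmed with Trimmomatic 0.36, aligned to hg38 with STAR 2.7.1a, counted by strand with HTSeq and normalised with DESeq2 1.28. The deposited values are signal, namely read counts that the authors divided by a size factor, in 2 tables normalised separately, each holding 1 ASAH1 hairpin and the same NS shRNA libraries. The authors' fold changes and p-values in these tables were not used. Dividing each value by what 1 read is worth gave whole reads (within 0.1) for 100% of values, and the recovered NS shRNA reads were identical in both tables.

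Each hairpin was compared with NS shRNA within its table by limma 3.58.1 (R 4.3.3) with an intensity trend on log2(normalised count + 1), for genes with a mean of at least 10, two-sided, with Benjamini-Hochberg adjustment over all genes tested. Fold changes of low genes are understated by the added 1. For shRNA #2 against shRNA #1, edgeR 4.0.16 (quasi-likelihood, TMM) was run on recovered reads from the 9 libraries together, and intervals of its ratios were taken from the test statistic. Other pseudocounts (0.1 and 5), filters (none and 50), scalings, DESeq2 1.42.0, a replicate block and leaving out each library were tried. An exact permutation test of 3 against 3 libraries cannot go below p = 0.1 and was not used. The scripts were tested on simulated data. Positions and lengths came from GENCODE v44 (hg38), promoter sequence from RefSeq (GRCh38.p14), whose windows were searched for the NF-kB consensus motif on both strands. Overlapping matches were kept as separate matches, and their capitals run together.

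The members and the gene lists were chosen with earlier results of these data known. The genes named from a list are the 4 with the largest log2 fold change per direction and comparison, among those that passed with a mean of at least 100 in that table, each given with its value for the other hairpin, and similar genes were sought for the 2 members with the largest mean change among those that passed in the same direction with each hairpin.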

Additional observations from a re-analysis of the deposited data

Results flagged for a closer look

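For 7 members the effect of the hairpins differed by the test of shRNA #2 against shRNA #1 itself (edgeR on all 9 libraries, 3 per group). TNFAIP3 had a log2 ratio of -2.23, with all shRNA #2 libraries below all shRNA #1 libraries. NFKB2 had a log2 ratio of -1.39 and lay on opposite sides of NS shRNA with the 2 hairpins. For RELB the log2 ratio was -1.09 and for NFKBIZ it was -0.92. NFKBIA alone was higher with shRNA #2, with a log2 ratio of 0.52, and it too lay on opposite sides of NS shRNA. RELA had a log2 ratio of -0.25. REL had a log2 ratio of -0.46 with an edgeR adjusted p of 0.0498, which did not pass in several of the alternatives given next.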

How the results depend on the processing

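The counts of members and list genes that passed stayed within 1.5 times under each alternative run (112 values for 7 counts), and of 480 alternative values for single members 469 had the same direction and call as reported. The sign of 2 ratios between hairpins turned, neither of which passed: NFKB1 with upper quartile scaling (-0.024, edgeR adjusted p = 0.670) and NFKBIE without ASAH1 shRNA #2 replicate 2 (0.026, edgeR adjusted p = 0.828). The difference in REL between the hairpins also failed to pass with limma on all 9 libraries (-0.44, adjusted p = 0.0717), and over all 16 alternatives its log2 ratio ranged from -0.60 to -0.36. The deviations of libraries with the same replicate number correlated negatively between NS shRNA and either hairpin and positively between the hairpins (r of -0.40, -0.26 and -0.58 for NS shRNA with shRNA #1, -0.16, -0.45 and -0.69 for NS shRNA with shRNA #2, and 0.09, 0.27 and 0.56 between the hairpins). Not every such r was over 0.1 in any of the 3 pairs of groups, so the numbers were not taken to pair the samples. With a replicate block 8, 7 and 6 members passed for shRNA #1, shRNA #2 and the hairpin difference, where NFKBIA with shRNA #1 (-0.21, limma adjusted p = 0.0511) and REL between the hairpins (adjusted p = 0.0869) no longer passed. The cause of these changes was not tested. REL had the fewest reads of the members.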
